A study of Mus musculus with 5 samples.

Results

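Centromere and kinetochore genes were followed in RNA sequencing of cells from the developing mouse retina. The group holds the genes of the deposited table whose symbol is Cenp followed by 1 letter, and a list of 22 further genes of the outer kinetochore, the spindle checkpoint and centromere assembly. That gave 42 of the 24594 genes in the table, and all 42 passed the filter on low values. Per the labels, newborn pups received by electroporation, in the living animal at postnatal day 0, a plasmid with the CAG promoter, which is active in most cell types. The plasmid carried green fluorescent protein (GFP) in the control group (CAG-GFP, 2 libraries) or Zfp292, a zinc finger protein of the nucleus, in the other (CAG-Zfp292, 3 libraries, labelled Zfp292-OE). After 4 days the retinas of both groups were dissociated and sorted for GFP, giving cells named RPC in the labels. The labels name no strain, genotype or litter, so p-values measure the spread between these libraries, which may be technical. The comparison asks which centromere and kinetochore transcripts differed between the groups.

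The centromere is the part of a chromosome marked by nucleosomes that hold CENP-A, a variant of histone H3. On this chromatin a constitutive network of CENP proteins sits through the cell cycle, and in mitosis it recruits the outer kinetochore, made of Knl1, the Mis12 complex and the Ndc80 complex, which binds microtubules. Checkpoint proteins gather on kinetochores without attached microtubules and hold the cell in mitosis, so in the retina these genes are best known from dividing progenitors, while the postmitotic rods and bipolar cells no longer build kinetochores.

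Reads assigned to genes numbered 103096224 to 137683716 per library, and the lowest number for any member in any library was 350. Zfp292 itself was not detectably higher, at 13288 and 14756 normalised reads in the controls against 14631, 13197 and 15534 in the 3 libraries labelled Zfp292-OE (log2 fold change 0.04, SE 0.14, adjusted p = 0.87). Directions below are therefore those of the labels. The progenitor markers were all present (10 of 10, summed 191445 to 211257 in control and 197195 to 224964 in the libraries labelled Zfp292-OE). Of these, 3 rose, 1 fell and 6 did not pass. Rod markers were also high in cells that the labels call RPC, with a summed count of 576192 to 699943 in control and 150892 to 166405 in the libraries labelled Zfp292-OE, and 8 of 8 fell.

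The promoters of some members are shown first. Whether sequence motifs in them bear on the members' rise was not tested. Shared sequence elements of mitotic genes are the CCAAT box, bound by the factor NF-Y, and the cell cycle homology region (CHR), bound by the DREAM and MuvB complexes. The letters searched on both strands were CCAAT for the first, TTTGAA and TTCGAA for the second, and TTTCCCGC, TTTCGCGC, TTTGCCGC and TTTGGCGC for E2F factors, and these motifs do not contain each other. RefSeq (GRCm38.p6) gave 43 start sites for 38 members, and 4 members (Nsl1, Ska1, Spc24 and Zwilch) had no entry. In the 250 bases before the start, a CCAAT box was found in 23 of 43 windows (53.5%), against 33.8% of all 32851 windows of the same length. Windows with 2 or more boxes made up 32.6% of the members' and 10.1% of all. A CHR was in 25.6% and 17.1%, and an E2F motif in 9.30% and 1.86%. Split by the test, 34 windows came from 31 genes that rose, and 9 from 7 genes that did not pass. A CHR was in 11 of the 34 and 0 of the 9, a difference that was not tested. Both windows of Bub3 count among the 11. Not every window lies at the 5′ end of its gene. Windows of Cenpt, Cenpj and Mad1l1 among the 9, and of Cenpk, Cenpm and Cenpv among the 34, lie inside the gene's RefSeq span. A CCAAT box was in 19 of 34 and 4 of 9, 2 or more boxes in 11 of 34 and 3 of 9, and an E2F motif in 3 of 34 and 1 of 9. Cenpx, Mis12 and Zwint, which did not pass, carried CCAAT boxes. The stretches below are those without exon bases in GENCODE M21, 5′ to 3′, in lower case with the motifs in capitals. RefSeq places the 5′ end of Cenpf at 189688107, so the last bases of its stretch lie inside the gene.
Cenpm, chr15:82244411-82244586, minus strand, 2 CCAAT boxes and a CHR: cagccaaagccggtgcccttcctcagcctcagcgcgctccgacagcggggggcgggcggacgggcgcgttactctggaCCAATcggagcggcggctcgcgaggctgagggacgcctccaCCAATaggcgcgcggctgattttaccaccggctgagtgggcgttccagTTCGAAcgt
Cenpf, chr1:189688087-189688336, minus strand, 2 CCAAT boxes: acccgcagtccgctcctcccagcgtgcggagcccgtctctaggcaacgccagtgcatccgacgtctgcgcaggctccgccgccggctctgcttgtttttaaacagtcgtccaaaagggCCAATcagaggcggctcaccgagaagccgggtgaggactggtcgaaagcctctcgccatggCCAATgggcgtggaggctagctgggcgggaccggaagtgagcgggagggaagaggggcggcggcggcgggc
Spc25, chr2:69206214-69206463, minus strand, 2 CCAAT boxes: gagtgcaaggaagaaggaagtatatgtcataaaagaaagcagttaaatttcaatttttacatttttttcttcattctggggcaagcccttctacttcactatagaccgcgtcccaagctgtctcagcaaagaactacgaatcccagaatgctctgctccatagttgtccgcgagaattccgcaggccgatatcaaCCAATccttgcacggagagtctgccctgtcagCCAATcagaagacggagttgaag
Nuf2, chr1:169531465-169531714, minus strand, no motif: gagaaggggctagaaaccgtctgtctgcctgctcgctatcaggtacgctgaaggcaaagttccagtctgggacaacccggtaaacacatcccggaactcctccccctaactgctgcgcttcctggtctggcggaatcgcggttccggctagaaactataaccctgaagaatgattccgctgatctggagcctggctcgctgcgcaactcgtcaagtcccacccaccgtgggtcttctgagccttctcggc
Cenpb, chr2:131180068-131180317, minus strand, 1 E2F motif: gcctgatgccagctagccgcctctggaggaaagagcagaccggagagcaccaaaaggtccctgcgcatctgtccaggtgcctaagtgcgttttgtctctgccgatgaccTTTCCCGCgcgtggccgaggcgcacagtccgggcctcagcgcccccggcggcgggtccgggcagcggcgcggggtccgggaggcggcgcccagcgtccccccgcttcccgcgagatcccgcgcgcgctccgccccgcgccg
The window of Cenpm also holds an E2F motif outside the stretch shown. Its boxes start at −172 and −131 and the CHR at −83, counted from the start site used. That site and the stretch shown lie inside the RefSeq span of Cenpm (82233762 to 82244773), not at its 5′ end. Spc25 has its boxes at −55 and −23. Nuf2, which rose by 2.98, holds none of the letters searched. Cenpb, the member that stayed closest to its control level, has an E2F motif at −141.

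Most of the centromere and kinetochore genes stood above control under the label Zfp292-OE. At an adjusted p of 0.05 in limma, 35 of the 42 members rose, none (0) fell and 7 missed the threshold, against 10% of all 16316 tested genes called higher and 7.38% called lower (17.4% in either direction). The median log2 fold change was 1.97 for the members and −0.06 for all tested genes. Of the 35, 19 rose at least 4-fold, 13 between 2-fold and 4-fold, and 3 (Cenpv, Ska2 and Bub3) by less than 2-fold. Among all tested genes, 3.88% were called higher by at least 2-fold and 1.48% by at least 4-fold. The libraries of the groups did not overlap for 39 of the 42, with higher values in the libraries labelled Zfp292-OE, while 24.3% of all tested genes showed this. Members with the opposite separation numbered 0, against 25.7% of all tested genes. edgeR on the recovered reads also called 35 higher and 0 lower (8.28% of all genes called higher), and DESeq2 called 36 and 0 (14.2%). No member (0) was lower at an unadjusted p below 0.05 in limma, edgeR or DESeq2. The calls needed both controls. With only 1 of them in the fit, limma called 0 members, although 37 (without control library 1) and 35 (without control library 2) had an unadjusted p below 0.05, at medians of 1.98 and 1.86. In sorted bulk cells, a larger share of dividing cells and more of each RNA per cell cannot be told apart.

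**Figure D1:**
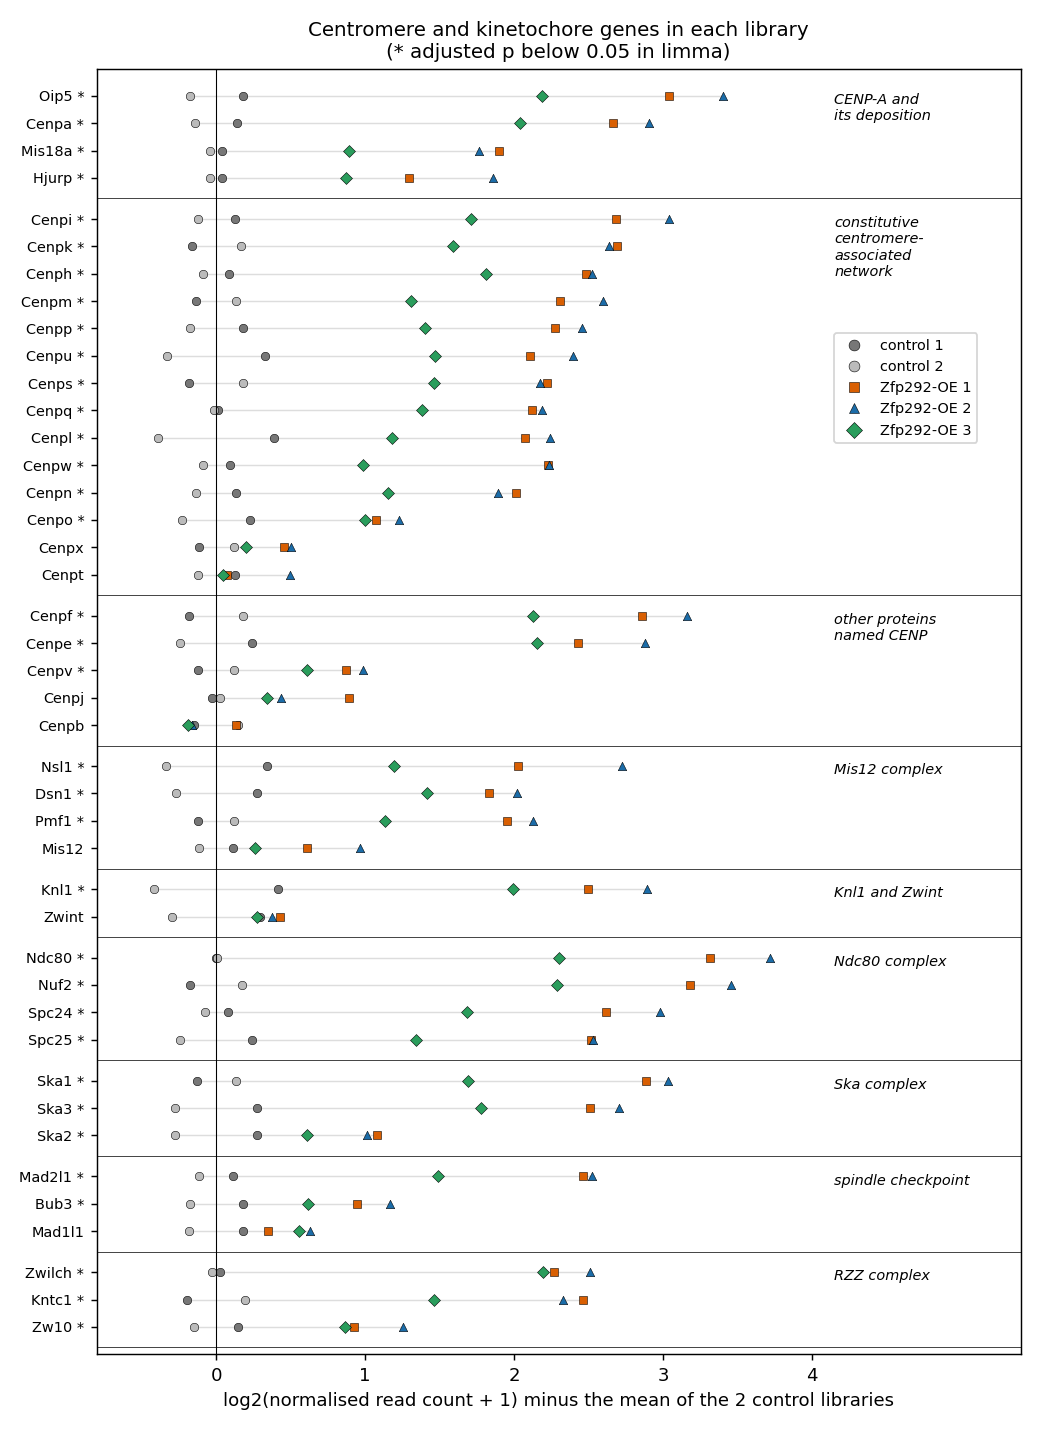
Each row is 1 member, grouped by role, and each point 1 library. The x axis is log2(normalised read count + 1) minus the mean of the 2 control libraries, and a star marks an adjusted p below 0.05 in limma. Library 3 labelled Zfp292-OE (green) lies left of the other 2 in 41 of 42 rows, and Cenpb, Cenpt and Zwint are the rows in which the groups overlap.

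The chromatin mark of the centromere and the factors that deposit it rose, 4 of 4. Cenpa, the histone variant (chromosome 5, 30666877 to 30674837), stood at 5105 and 4203 normalised reads in control and at 29425, 34739 and 19009 in the other group, given here and below in the order of libraries 1, 2 and 3. The lowest of these was well above both controls, and the means of 4654 ± 637 (SD, n = 2) and 27724 ± 8002 (SD, n = 3) differed 5.96-fold (log2 fold change 2.54, SE 0.23, adjusted p = 0.00037). Oip5, also called Mis18β, is part of the Mis18 complex that marks where CENP-A will be placed. It stood at 1552 and 1213 in the controls against 11310, 14500 and 6260, a log2 fold change of 2.88 (SE 0.31, adjusted p = 0.00056). Oip5 shares 9.7% of its exon bases with Nusap1 on the opposite strand, a spindle gene that itself rose by 2.99, and the sources do not say whether counting used the strand. Its partner Mis18a rose by 1.52. Hjurp, the chaperone that carries CENP-A to the centromere, moved least of the 4. It went from 2287 and 2166 to 5458, 8058 and 4077, a log2 fold change of 1.34 (SE 0.26, adjusted p = 0.0085). Cenpa over Hjurp, as a log2 ratio of transcripts, was 1.16 and 0.96 in the controls and 2.43, 2.11 and 2.22 in the others. This RNA ratio was above both controls in each of the 3 libraries.

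The constitutive network is a set of subcomplexes that link CENP-A chromatin to the outer kinetochore. Of its 14 members, 12 rose, 0 fell and 2 did not pass, with a median log2 fold change of 1.92. Cenpi rose most, from 1119 and 942 to 6621, 8448 and 3367 (log2 fold change 2.48, SE 0.34, adjusted p = 0.0015). Its partners in the same subcomplex moved with it, Cenpk by 2.31, Cenph by 2.27 and Cenpm by 2.07. Cenpl and Cenpn, which together contact CENP-A nucleosomes, rose by 1.83 and 1.69. The subcomplex of Cenpo, Cenpp, Cenpq and Cenpu rose by 1.10, 2.04, 1.90 and 1.99. Cenpo shares 22.5% of its exon bases with Adcy3 and Ptrhd1, and Cenpu shares 26.7% with Primpol, all on the opposite strand, so their counts are less certain. The same holds to a smaller degree for Cenpp (12.6%, Ippk and Aspn).

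The remaining 4 genes of the network encode histone-fold proteins that form the pairs CENP-T with CENP-W and CENP-S with CENP-X, and in each pair 1 partner rose and the other did not pass. Cenpw rose by 1.82 (SE 0.33, adjusted p = 0.0063). Cenpt had 4254 and 3583 in the controls and 4098, 5500 and 4021 in the libraries labelled Zfp292-OE. These ranges overlap, and the log2 fold change of Cenpt was 0.20 (95% interval −0.25 to 0.65, adjusted p = 0.52), turning to −0.014 with equal totals. Cenps rose by 1.95 (SE 0.25, adjusted p = 0.0011). Cenpx, at 9413 and 11085 against 14027, 14469 and 11713, was higher in each labelled library, by 0.39 (95% interval 0.03 to 0.74), which did not pass (adjusted p = 0.12). As a log2 ratio, Cenpw over Cenpt was −0.46 and −0.40 in the controls and 1.73, 1.31 and 0.52 in the others. That of Cenps to Cenpx went from −2.57 and −2.44 to −0.74, −0.84 and −1.24. Cenpw shares near-identical stretches with 14 other genes in GENCODE (the longest match 345 bases at 95.4% identity), among which reads could be split. CENP-X also works with CENP-S at stalled replication forks as part of the Fanconi anaemia pathway.

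Of the 5 other proteins named CENP, 3 rose, 0 fell and 2 did not pass. Cenpf, a large protein of the outer corona, was at 2382 and 3066 in the controls and 19648, 24166 and 11796 in the other group (log2 fold change 2.72, SE 0.27, adjusted p = 0.00044). The kinetochore motor Cenpe rose by 2.49, and Cenpv, linked to microtubule bundling, by 0.82. Cenpb binds a short motif in centromeric satellite DNA and is not needed for CENP-A chromatin. Its counts were 2255 and 2763 in control and 2736, 2235 and 2194 in the others, so the groups overlapped. The log2 fold change was −0.07 (95% interval −0.55 to 0.41, adjusted p = 0.85), and it was 0.0020 after quantile normalization and 0.076 without control library 2. Cenpj, despite its name, builds centrioles. It had 1154 and 1198 in control and 2185, 1589 and 1492 in the others, a difference of 0.56 that did not pass (95% interval −0.02 to 1.13, adjusted p = 0.16).

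The Mis12 complex joins the inner network to the microtubule-binding layer through 4 subunits, of which 3 rose. Nsl1 had the largest value, going from 459 and 286 to 1477, 2401 and 831, a log2 fold change of 1.98 (SE 0.44, adjusted p = 0.015). Its call was lost without library 1 labelled Zfp292-OE. Dsn1, the subunit that Aurora B phosphorylates, rose by 1.76, and Pmf1 by 1.74. Mis12 itself was lower in both controls (4099 and 3492) than in the 3 others (5788, 7384 and 4542), but its difference of 0.61 (95% interval 0.12 to 1.10) did not pass (adjusted p = 0.082). It passed in DESeq2 (adjusted p = 0.034) and when library 3 of that group was left out (adjusted p = 0.038). The log2 ratio of Pmf1 to Mis12 was 0.20 and 0.68 in the controls and 1.78, 1.60 and 1.31 in the others.

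Knl1, the scaffold on which the Bub kinases are recruited, had 2405 and 1346 in the controls and 10161, 13381 and 7182 in the others. It rose by 2.46 on the log2 scale (SE 0.30, adjusted p = 0.00086). Zwint, which binds Knl1 and is also known in the nervous system as a partner of the synaptic protein Snap25, was among the most abundant members in control. Its counts were 89496 and 59439 in control and 98023, 94724 and 88063 in the others, so library 3 labelled Zfp292-OE lay below control library 1. Its log2 fold change was 0.36 (95% interval −0.04 to 0.76, adjusted p = 0.19). Its value depended on the controls, with 0.65 without control library 1 and 0.06 without control library 2, and it was 0.14 with equal totals and 0.04 after quantile normalization.

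The Ndc80 complex, the main microtubule coupler of the kinetochore, had the largest values of the 9 role groups. All 4 subunits rose (median log2 fold change 2.70). Ndc80 (chromosome 17, 71496100 to 71526857) was at 1451 and 1458 in the controls and at 14497, 19130 and 7161 in the other group. The controls differed little, while library 2 of the other group lay far above library 3. Ndc80 rose 9.35-fold by the means, 1454 ± 5 (SD, n = 2) against 13596 ± 6035 (SD, n = 3), and limma's difference of mean log2 values was 3.11 (SE 0.34, adjusted p = 0.00057). Its coiled-coil partner Nuf2 rose by 2.98. Between these partners the log2 ratio, Ndc80 over Nuf2, was −0.01 and −0.35 in the controls and −0.05, 0.08 and −0.17 in the others, so the groups overlapped for this pair. Spc24 and Spc25 form the end that docks on the Mis12 complex, and rose by 2.43 and 2.13. Spc25 stood out by level, with 23700 and 16989 in control and 114571, 116029 and 50882 in the others (SE of its log2 fold change 0.32, adjusted p = 0.0025). The ratio of Spc24 to Spc25 also overlapped between the groups.

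The Ska complex helps the Ndc80 complex to follow shortening microtubules, and 3 of its 3 subunits rose. Ska1 (896 and 1074 in control, 7257, 8029 and 3163 in the others) rose by 2.54 (SE 0.36, adjusted p = 0.0017) and Ska3 by 2.33. Ska2 moved less: 11263 and 7678 in control became 19644, 18808 and 14183, a log2 fold change of 0.90 (SE 0.20, adjusted p = 0.016), and the call was lost without library 1 labelled Zfp292-OE. A pseudogene of Ska2 matches it over 360 bases at 97.2% identity, and 10.1% of its exon bases lie opposite Gm11491. The log2 ratio of Ska1 to Ska2 was −3.65 and −2.84 in the controls and −1.44, −1.23 and −2.16 in the others.

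Among the 3 checkpoint genes of the role group, Mad2l1, the inhibitor of the anaphase-promoting complex that unattached kinetochores activate, rose most. It had 8811 and 7516 in the controls and 44826, 46777 and 22898 in the others, a log2 fold change of 2.16 (SE 0.27, adjusted p = 0.0011). Mad2l1 shares a near-identical stretch with 1 other gene, Gm42430, which matches it over 454 bases at 95.4% identity. Bub3, which brings the Bub kinases to Knl1, rose by 0.91 (SE 0.18, adjusted p = 0.0098). Mad1l1, the kinetochore receptor of Mad2, had 2067 and 1605 in control against 2318, 2819 and 2674. All 3 values were above the controls, but the difference of 0.51 (SE 0.22) did not pass (adjusted p = 0.14). The log2 ratio of Mad2l1 to Mad1l1 went from 2.09 and 2.23 in control to 4.27, 4.05 and 3.10.

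The RZZ complex of Kntc1 (Rod), Zwilch and Zw10 recruits dynein and Mad1 to the kinetochore. All 3 genes rose. Zwilch went from 445 and 427 to 2099, 2485 and 1998, a log2 fold change of 2.32 (SE 0.26, adjusted p = 0.00059), with a narrow spread in both groups. Kntc1, the least abundant member per transcript length in control, rose by 2.08. Zw10, which also works in vesicle transport between Golgi and endoplasmic reticulum, went from 5304 and 4328 to 9083, 11432 and 8734, a log2 fold change of 1.01 (SE 0.18, adjusted p = 0.0055). The log2 ratio of Zwilch to Zw10 was −3.57 and −3.34 in control and −2.11, −2.20 and −2.13 in the others.

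The ratios between partners above are a description, since the 16 pairs compared were chosen after their values were seen. With 2 libraries against 3, the smallest p of a two-sided exact permutation test was 0.10, so no pair could pass. Adjusted over the 16 pairs, the values ran from 0.15 to 0.50. Ndc80 with Nuf2 (exact permutation p = 0.50) and Spc24 with Spc25 (exact permutation p = 0.30) were the pairs whose ratios overlapped between the groups.

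**Figure D2:**
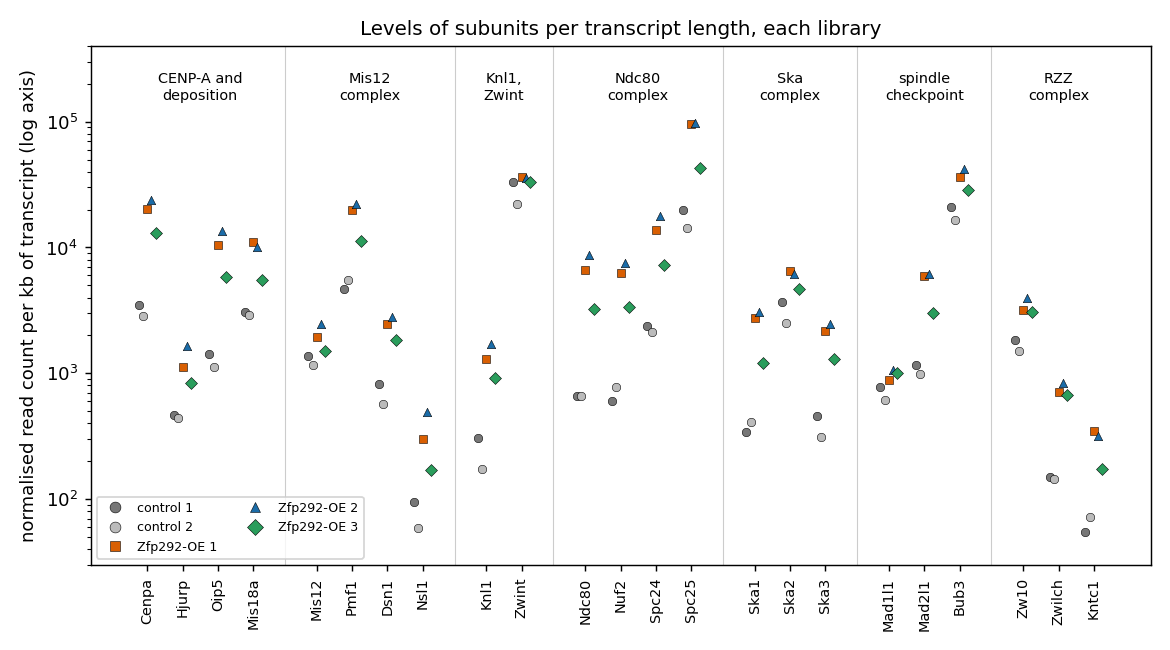
Normalised read count per kb of the principal GENCODE transcript (log axis) for 23 members in each of the 5 libraries, ordered by complex. By control mean, Zwint (27828), Bub3 (18860) and Spc25 (17039) are highest among the genes plotted and Kntc1 (63.2) is lowest.

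Levels of different genes were compared per kb of the principal GENCODE transcript. In control the 4 highest means were those of Zwint (27828 normalised reads per kb), Bub3 (18860), Spc25 (17039) and Cenpx (16913), and the 3 lowest were Kntc1 (63.2), Nsl1 (76.4) and Zwilch (147). The same 4 and the same 3 genes stood at the ends when lengths were taken as the union of all exons. In the libraries labelled Zfp292-OE the mean of Spc25 was the highest under both lengths, at 78583 per kb of the principal transcript. Over the 42 members the control level per kb and the log2 fold change had a Spearman rho of −0.35 (−0.44 with the union of exons). This is across genes in the same 5 libraries, and the control values enter both measures. Of the 4 most abundant members in control, Cenpx and Zwint did not pass, Bub3 rose by 0.91, and Spc25 rose by 2.13.

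**Figure D3:**
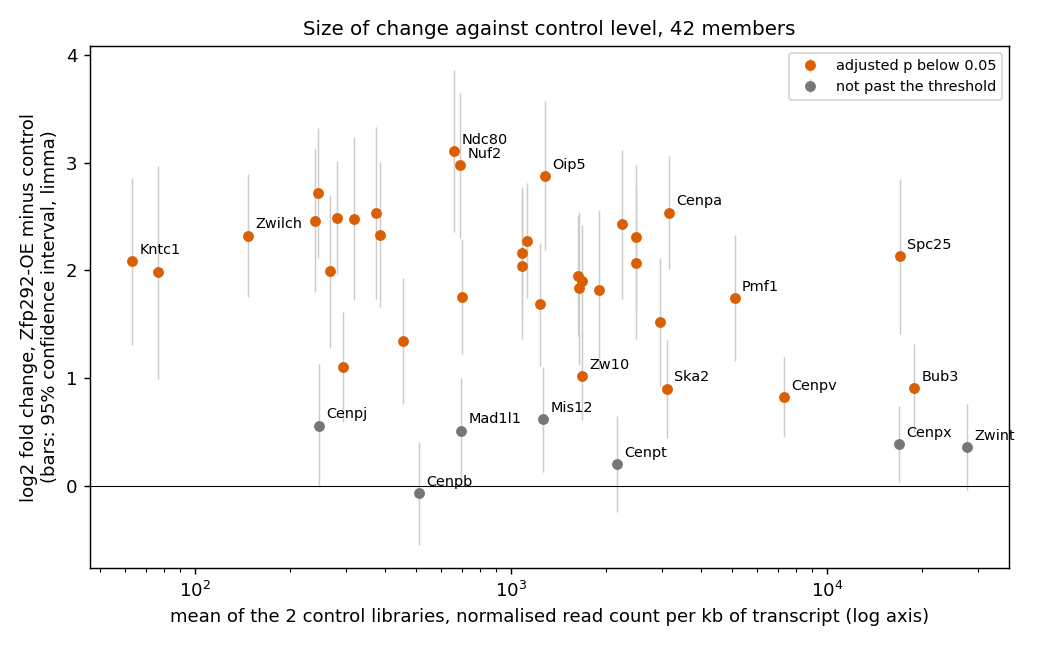
Log2 fold change with its 95% confidence interval in limma (y axis) against the control mean per kb of transcript (log x axis) for the 42 members. Orange points passed an adjusted p of 0.05 and grey points did not. The grey points run from Cenpj (247) to Zwint (27828), the 5 members below Cenpj are all orange, and Spc25 (17039) combines a high level with a change of 2.13.

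The 3 libraries labelled Zfp292-OE differed in how far the members rose. Averaged over the 42 members, the log2 difference from the control mean was 1.90, 2.07 and 1.26 in libraries 1, 2 and 3. Library 3 had the lowest value of the 3 for 41 of 42 members, against 35.0% of all tested genes, with Mad1l1 the exception, and library 2 the highest for 33 (32.2% of all tested genes). The 19 other mitosis genes followed the same order, with 2.74, 3.05 and 2.02, and the 18 DNA replication genes had 2.07, 2.25 and 1.62. Library 3 also had the lowest summed count of the 5 microglial markers, 298 against 1318 and 1861 in libraries 1 and 2 and 1773 and 4590 in the controls. Its part in the members' values was not tested. Control library 1 was above control library 2 for 29 of 42 members, against 8136 of all 16316 tested genes.

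Other genes of the same machinery, from lists that are not part of the group, gave a similar picture. Among 23 tested further centromere and kinetochore genes there were 18 that rose, 2 that fell and 3 short of the threshold (median log2 fold change 2.14). The chromosomal passenger genes Aurkb (3.12) and Cdca8 (2.74) and Sgo1 (2.77), which protects centromeric cohesion, had the smallest p. Incenp, also of the passenger complex, was higher by 0.87 but did not pass in limma (adjusted p = 0.092). It passed in DESeq2 (adjusted p = 0.034). Cenpc1, the gene of the CENP-C scaffold, whose symbol falls outside the rule used for the members, rose by 0.66 (adjusted p = 0.048 in limma). Cenpc1 did not pass in edgeR (adjusted p = 0.061) and passed in DESeq2 (adjusted p = 0.010). The 2 that fell were Clasp1 (−0.65) and Clasp2 (−0.56), microtubule stabilisers that also act in interphase cells. All 19 other mitosis genes rose, with a median of 2.71. The smallest p belonged to Hmmr (2.82), a spindle protein, Tpx2 (2.78), a spindle assembly factor, and the cyclin Ccnb2 (2.96). Of 18 DNA replication genes 17 rose and 1 did not pass (median 1.95). The smallest p in this list belonged to Rrm1 (2.02), a subunit of ribonucleotide reductase, Mcm6 (2.37), a helicase subunit, and the licensing factor Cdc6 (2.93).

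**Figure D4:**
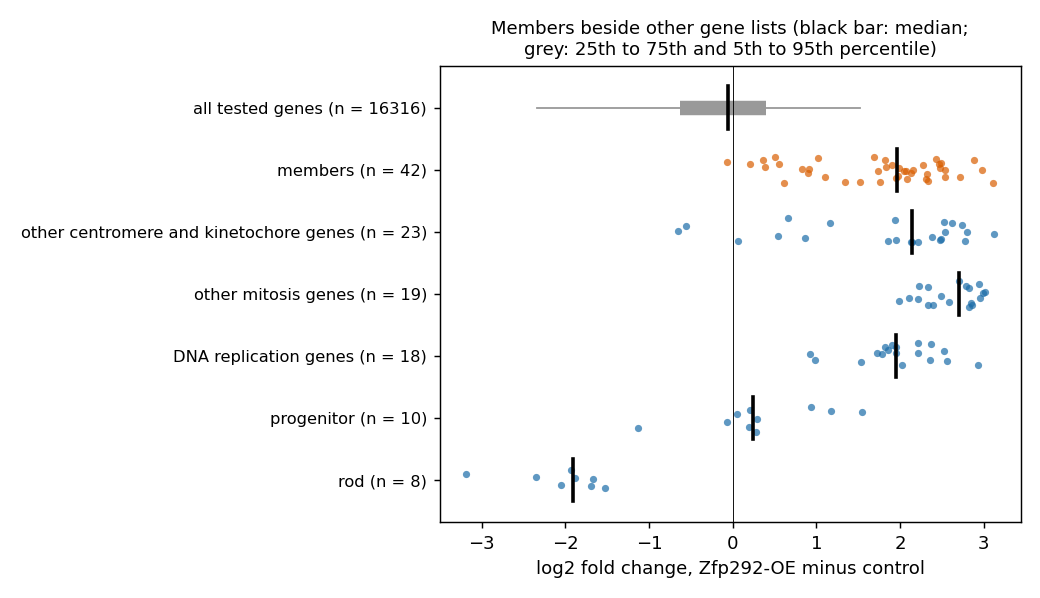
Log2 fold change of the libraries labelled Zfp292-OE over control. Each point is a gene, the black bar is the median, and for all 16316 tested genes the grey bars span the 25th to 75th and the 5th to 95th percentile. The members' median of 1.97 lies between those of the DNA replication genes (1.95) and the other mitosis genes (2.71), and the 8 rod genes lie on the other side of 0.

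Markers of other cells are given as summed normalised counts per library, control first. Of 7 bipolar markers 6 fell, from 23719 to 26750 in control to 4526 to 6162, with Grm6, Vsx1 and Bhlhe23 at 0 in at least 1 library. Of 6 Müller glia markers 4 fell and 1 rose, from 554294 to 684089 in control to 249105 to 328443. Most of that sum was Apoe, at 367626 and 479410 in control and 178744, 145406 and 196272 in the others. Amacrine and horizontal markers (2 of 8 fell) were at 43261 to 44083 and 22482 to 28891, and ganglion cell markers (0 of 5 passed) at 3736 to 5699 and 4850 to 12084. Of 5 pericyte markers 3 fell, from 1091 to 2695 in control to 186 to 388, and of 4 astrocyte markers 2 fell, from 3454 to 7362 to 2078 to 2414. The endothelial sum, nearly all Kdr, was 40209 to 48603 and 34948 to 43888, with Cldn5 higher and Cdh5 and Tek at 0 in at least 1 library. Microglial markers (0 of 5 passed, 2 of 5 without overlap) are given above, with Csf1r at 0 in at least 1 library. Their part in the members' rise was not tested.

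Among the 5 genes whose pattern over the 5 libraries was most like the mean of the members were Birc5, Gltp, Tubb4b and Prim1, with Pearson correlations of at least 0.9995. Birc5 encodes survivin of the chromosomal passenger complex and Prim1 a subunit of DNA primase. They rose by 2.80 and 2.20, Gltp by 1.23 and Tubb4b by 1.06. The 5 libraries fall into 2 groups, so these correlations describe the difference between the groups as well as the order within them. Within the group of 42, the correlation with the mean was lowest for Cenpb (−0.17), Cenpt (0.65) and Zwint (0.73).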

How the data were processed

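Messenger RNA was sequenced from GFP-positive retinal cells in 5 libraries (2 control, 3 labelled Zfp292-OE), made with a SMARTER kit from 1.3 µg of total RNA, per the labels' protocols. Submitters' processing notes list GRCm38 and mm10 as builds. Which aligner, counter, annotation, strand setting and scaling the authors used is not stated there. The table deposited by the authors holds, as signal, reads of each gene over a constant of its library, since 100% of values were whole multiples of the smallest value above 0 (tolerance 1e-06 of a read). Whole reads were recovered from these steps. The table has 0 columns of other samples.

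Genes with a mean of at least 10 entered limma 3.58.1 with a mean trend, in R 4.3.3, as log2(value + 1), Zfp292-OE minus control, and p-values were adjusted by Benjamini-Hochberg over all 16316 genes, with a threshold of 0.05. A fold change on this scale understates the change of low genes. edgeR 4.0.16 and DESeq2 1.42.0 on whole reads were alternatives, with other pseudocounts, filters and scalings, array weights, a replicate block and each library left out. In edgeR 2621 genes were called. Scripts were tested on simulated data. The members, lists and motifs were chosen with earlier results of these data known. Values per library are given for the members of each role group with the largest and smallest change and for those that did not pass, and for Cenpa, added after its values were seen. Other lists are represented by the genes with the 3 smallest p, Cenpc1, Incenp and the genes that fell. Gene coordinates are from RefSeq (GRCm38.p6), lengths and exon overlaps from GENCODE M21 on the same build, with 42 of 42 members matched. Of these, 12 overlap an exon on the opposite strand. Near-identical stretches in other genes were sought with blastn 2.17.0 (at least 95% identity over 200 bases). Single genes that the naming rule would add are in part not reported here. Plots were drawn with matplotlib 3.10.9.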

Additional observations from a re-analysis of the deposited data

How the results depend on the processing

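The members' count rested on having both controls. The number of members called higher ranged from 0 to 36 when 1 library was left out, and the number of genes called from 1 to 2352. Without control library 1 or control library 2, limma called 0 members and 1 gene, although 4390 and 3534 genes had an unadjusted p below 0.05. In those fits the control group is 1 library, assumed to vary like the others. Without library 1 labelled Zfp292-OE 33 members and 1657 genes were called. The other settings called 35 or 36 members higher, with 0 lower, and a median of 1.75 (equal totals) to 2.24 (replicate block). Equal totals moved the median of all tested genes from −0.06 to −0.27 and turned the split of calls from 1632 higher and 1204 lower to 912 and 1985. The members' calls did not change in that fit. Directions turned for Cenpt with equal totals (−0.014) and for Cenpb after quantile normalization (0.0020) and without control library 2 (0.076, in a range of −0.22 to 0.076 over the libraries left out). The replicate block called 36 members higher and 2498 genes. Library 3 labelled Zfp292-OE has no control of its number, so the block takes it out of the contrast, and the members' median of 2.24 and the gain of Mis12 were the same as without that library. Libraries of the same number shared only that number (correlations of −0.04 and −0.03 between deviations from the group means). The block changed no other call among the members. All 42 members had at least 350 reads in each library.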
